A study of Mus musculus with 6 samples.

Results

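Contractile smooth muscle genes were examined in aortic roots of klotho-deficient and wild-type mice. The 34 members were a list of known smooth muscle genes: actin filament proteins, smooth muscle myosin with its regulators, the transcription factors that drive them, and proteins of adhesion sites and ion channels. Each was represented by the brightest of the array's probe sets (groups of short probes read as 1 value) given to that gene alone. All 34 were measured, among 18193 genes in all, and all 34 were above background, the highest signal of 27 bacterial control probe sets that match no mouse transcript (161.8).

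The klotho-deficient mice were homozygous for a mutant klotho allele and the controls were homozygous wild type, all on the C57BL/6J albino strain and aged 6 to 6.5 weeks. Klotho lets cells respond to FGF23, a hormone that controls phosphate. The dissected tissue took in valve leaflets, annulus and some of the ascending aorta, so vascular wall, valve and adjoining tissue were measured together. RNA of 3 mice was combined for every array, and the 6 arrays, 3 per genotype, drew on 9 mice of each genotype. Spread and p-values therefore refer to pools, not to single mice. The pools are numbered here as replicates 1 to 3 of each genotype, and values are linear signal intensities.

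Smooth muscle cells of the aortic wall contract by sliding smooth muscle myosin along actin filaments anchored at dense bodies and at the cell membrane. Calcium activates myosin light chain kinase, which phosphorylates the myosin regulatory light chain, and a myosin phosphatase reverses this. Most genes of the apparatus carry CArG boxes, the DNA elements bound by serum response factor (SRF) with its cofactor myocardin, and smooth muscle cells that leave the contractile state lower many of them together.

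The CArG box, 2 C bases, then 6 A or T bases, then 2 G bases, reads the same on both strands as a motif and was searched for near the start of each member. RefSeq promoter windows (GRCm38.p6), from 250 bases before to 50 bases after the gene start, were matched for 29 of the 34 members and were not used here for Actg2, Tagln, Myh11, Myocd and Nexn. At least 1 exact CArG box lay in the windows of 6 of these 29 genes (20.7%), against 488 of 27025 genes (1.81%) and 535 of 32851 windows (1.63%) in the whole table. A match is a description of the letters and not a site shown to be bound. The stretches below show those boxes in capitals with their upstream surroundings, since the box is the sequence these genes share.
Srf: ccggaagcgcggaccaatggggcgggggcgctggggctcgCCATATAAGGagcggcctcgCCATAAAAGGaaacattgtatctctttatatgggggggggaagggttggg
Myl9: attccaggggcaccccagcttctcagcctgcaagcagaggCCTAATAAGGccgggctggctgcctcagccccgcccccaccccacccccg
Vcl: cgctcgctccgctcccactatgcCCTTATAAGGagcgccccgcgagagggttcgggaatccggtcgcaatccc
Filip1l: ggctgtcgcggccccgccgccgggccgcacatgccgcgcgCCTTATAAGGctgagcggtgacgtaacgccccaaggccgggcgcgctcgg
Ldb3: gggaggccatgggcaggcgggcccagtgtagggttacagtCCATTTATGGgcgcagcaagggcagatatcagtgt
Fhl1: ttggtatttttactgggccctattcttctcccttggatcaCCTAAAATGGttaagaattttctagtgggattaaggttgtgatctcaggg

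Srf, which encodes serum response factor itself, had 2 boxes, beginning 82 and 62 bases before its gene start, in chr17:46556175-46556284 on the minus strand. Vcl and Filip1l shared the same box letters, in chr14:20929148-20929220 and chr16:57549140-57549229, both on the plus strand. The Myl9 box began 161 bases before the start (chr2:156775263-156775352, plus strand). The Ldb3 box began 35 bases before a start (chr14:34588682-34588756, minus strand) and the Fhl1 box 102 bases before a start (chrX:56779541-56779630, plus strand). Ldb3, Filip1l and Fhl1 had 2 windows each. For Filip1l and Fhl1 a box lay in only 1 of the 2, and for Ldb3 in both. The genotype differences of these 6 genes, given below, ran from -0.40 for Ldb3 to 0.35 for Filip1l on the log2 scale, and none passed the test.

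Arrays differed in ways that touch the members. Among the 200 brightest genes of the series, 167 had their lowest value on klotho-deficient replicate 3 (83.5%), against 2426 of 13322 genes above background (18.2%), and 11 members are among those 200: Acta2, Tpm1, Tpm2, Cald1, Tagln, Myh11, Myl9, Mylk, Itga8, Fhl1 and Dstn. Of these 11, 9 were lowest on that array, and after quantile normalization, which gives every array the same distribution, 1 was. The part of this in the members' values was otherwise not tested. Klotho-deficient replicates 2 and 3 had the Y-linked gene Kdm5d below background (16.1 and 5.8) while it was 2516.3 on klotho-deficient replicate 1 and 2512.1 to 3267.9 in wild type, so the Y-linked content of the pools was not balanced between genotypes.

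The contractile genes as a group did not separate the genotypes. Limma called 0 of 34 members, and 0 of all 18193 genes (percent called 0), at an adjusted p under 0.05. At an unadjusted p under 0.05 there were 0 members in either direction, against 6.41% of all genes (1166 genes), 3.25% higher and 3.16% lower. A difference is given as the log2 signal in klotho-deficient roots minus that in wild type, and over the members it ran from -0.42 (Myocd) to 0.62 (Kcnma1), with 20 positive and 14 negative. Their median was 0.045, against 0.003 over all genes, and their median absolute difference was 0.13, against 0.24 over all genes and 0.19 over the genes above background. The members include 11 of the 200 brightest genes, and no set of genes matched for brightness was compared. The sign of the members' median rested on single arrays: it was -0.07 without klotho-deficient replicate 1 and -0.02 without wild-type replicate 3.

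The 3 klotho-deficient arrays lay wholly above the wild-type arrays for 1 member, Rgs5, and wholly below them for 1, Myocd. Over all genes the same happened upward in 6.63% and downward in 6.84%, over the genes above background in 6.95% and 7.86%, and each single member is 2.94% of the list. The 95% interval of the difference lay within 1 log2 unit of 0, that is within a 2-fold change either way, for 28 of the 34 members (82.4%). The share was 70.2% of the 13322 genes above background, which were not matched to the members for brightness. The other 6 members, whose intervals reached beyond a 2-fold change, were Actg2, Lmod1, Des, Kcnmb1, Kcnma1 and Rgs5. In whole roots, fewer smooth muscle cells and less RNA per cell cannot be told apart.

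**Figure D1:**
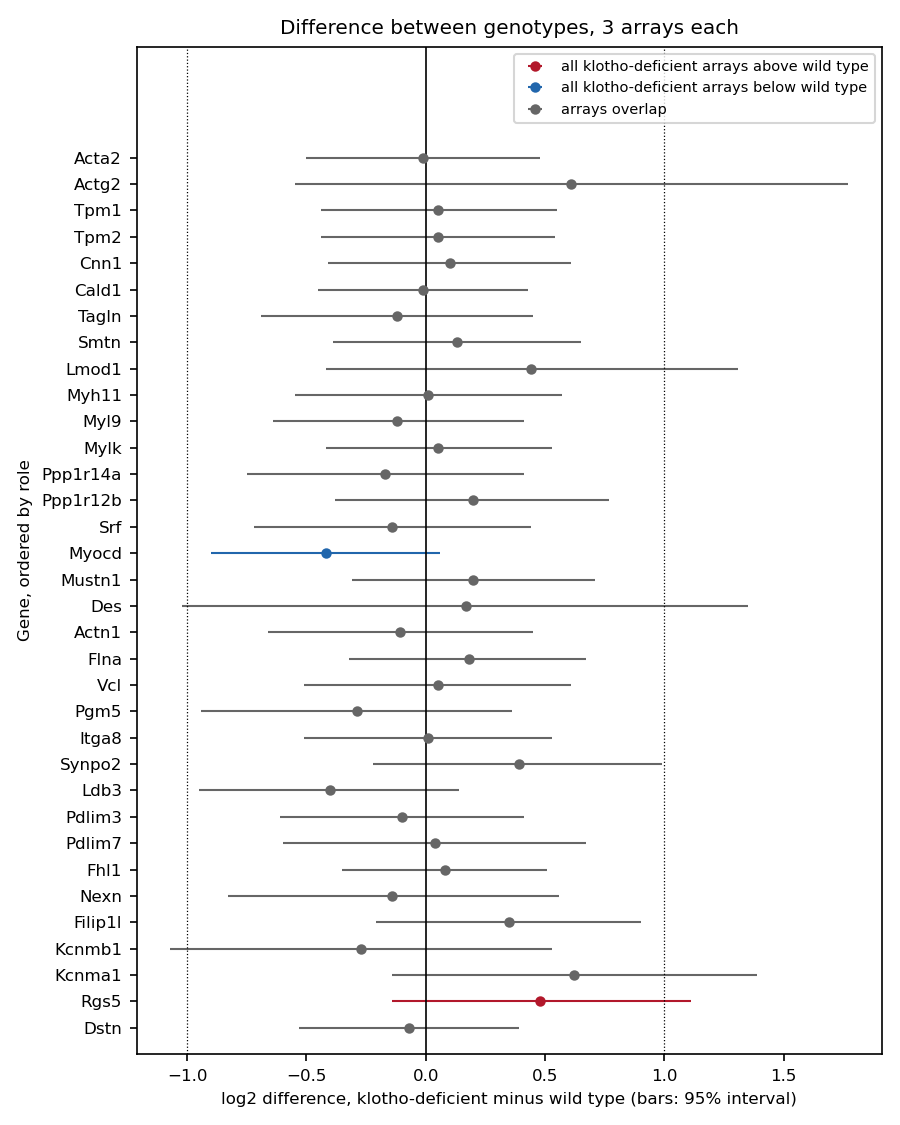
Log2 difference between klotho-deficient and wild-type roots (x axis) for each of the 34 contractile smooth muscle genes (y axis, ordered by role), with the 95% interval from limma as bars and dotted lines at a 2-fold change. All intervals include 0, and the arrays of the genotypes do not overlap for Myocd (-0.42) and Rgs5 (0.48).

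Thin filament genes had their differences close to 0 for the most abundant transcripts. Acta2, smooth muscle alpha-actin, gave signals of 63990.8, 55517.0 and 44421.8 on klotho-deficient replicates 1 to 3 and of 58012.7, 52022.0 and 53106.7 on the wild-type replicates. The klotho-deficient arrays spanned both the highest and the lowest Acta2 signal of the study, with the wild-type arrays between them. The difference was -0.01 ± 0.20 (SE), with a 95% interval of -0.50 to 0.48 and an adjusted p of 0.997.

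Tagln, the actin-binding protein transgelin (SM22-alpha), measured 35888.5, 31590.4 and 24151.2 in klotho-deficient roots and 32500.1, 27713.1 and 39034.7 in wild type. Its lowest array was klotho-deficient replicate 3 and its highest wild-type replicate 3, with the rest intermixed (-0.12 ± 0.24, adjusted p = 0.939). Cnn1, calponin, which binds actin and inhibits myosin ATPase, measured 19180.0, 12933.1 and 17421.8 against 15707.5, 15373.1 and 14580.7. The wild-type arrays were tightly grouped and the klotho-deficient ones lay on both sides of them (0.10 ± 0.21, adjusted p = 0.944).

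Smtn, smoothelin, a structural protein of fully contractile smooth muscle, measured 6891.8, 5163.3 and 7323.9 against 6278.8, 6208.4 and 5137.1 (0.13 ± 0.21, adjusted p = 0.93). Klotho-deficient replicate 2 and wild-type replicate 3 were the low arrays for Smtn. Tropomyosins Tpm1 and Tpm2, which lie along the actin filament, each had a difference of 0.05, and Cald1, caldesmon, had -0.01, all within 1 SE of 0.

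Lmod1, leiomodin, which starts new actin filaments in smooth muscle, measured 16641.9, 7965.0 and 17128.1 in klotho-deficient roots and 11369.6, 10171.6 and 7822.7 in wild type. Klotho-deficient replicates 1 and 3 were above all wild-type arrays, while klotho-deficient replicate 2 was close to the lowest of them. The difference was 0.44 ± 0.36 (adjusted p = 0.848), and it was 0.80 without klotho-deficient replicate 2 and 0.25 without klotho-deficient replicate 3. Actg2, the gamma-actin of enteric smooth muscle, had the same low arrays, at 6736.2, 3325.3 and 7531.5 against 4405.1, 5274.1 and 2051.4 (0.61 ± 0.48, adjusted p = 0.846). Leaving out wild-type replicate 3 gave an Actg2 difference of 0.20, and leaving out klotho-deficient replicate 2 gave 0.97. Among the 9 thin filament genes 7 were within 1 SE of 0.

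**Figure D2:**
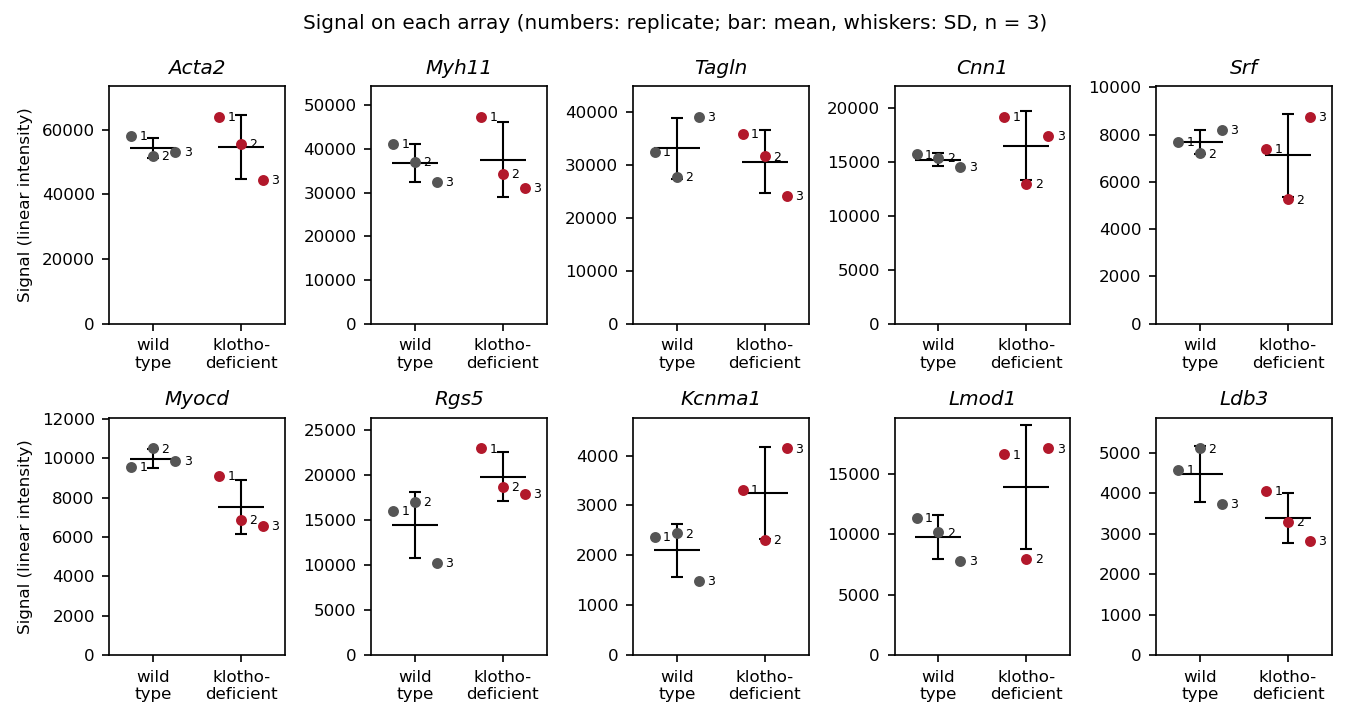
Linear signal intensity (y axis, from 0) on each array for 10 contractile genes, with wild-type arrays in grey, klotho-deficient arrays in red, the replicate number beside each point, and the mean and SD of 3 arrays as bars. Acta2, Myh11, Tagln, Cnn1 and Srf overlap between genotypes, while the Myocd points of the klotho-deficient arrays (6579.7 to 9095.2) sit below those of wild type (9563.5 to 10501.4).

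Myosin and the genes that set its phosphorylation were all within 1 SE of 0 in their differences. Myh11, the smooth muscle myosin heavy chain, measured 47324.1, 34213.6 and 31026.5 in klotho-deficient roots and 41075.2, 37010.5 and 32355.8 in wild type. The ranges of the genotypes overlapped throughout, and the difference was 0.01 ± 0.23 (95% interval -0.55 to 0.57, adjusted p = 0.997). Mylk, the kinase that phosphorylates the myosin light chain, measured 45169.1, 37062.1 and 33878.5 against 40399.6, 38065.9 and 32958.5 (0.05 ± 0.20, adjusted p = 0.974).

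Myl9, the regulatory light chain that Mylk phosphorylates, had a difference of -0.12 ± 0.22. Ppp1r14a, the phosphatase inhibitor CPI-17, had -0.17 ± 0.24, and Ppp1r12b, a targeting subunit of myosin phosphatase, 0.20 ± 0.24. These 5 genes therefore spanned -0.17 to 0.20, and the 95% interval of each lay within a 2-fold change.

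The transcription factors gave the member with the smallest p. Myocd, myocardin, the SRF cofactor that drives the smooth muscle programme, measured 9095.2, 6866.5 and 6579.7 in klotho-deficient roots and 9563.5, 10501.4 and 9857.3 in wild type. All klotho-deficient arrays were below all wild-type arrays, with klotho-deficient replicate 1 only slightly so. The means were 7514 ± 1380 and 9974 ± 480 (SD, n = 3), a difference of -0.42 ± 0.20 (95% interval -0.90 to 0.06) that did not pass (unadjusted p = 0.0745, adjusted p = 0.775). A dimmer Myocd probe set gave -0.38, with means of 452.8 and 584.4 and overlapping arrays. Without the pools that lacked Y-linked transcripts, klotho-deficient replicates 2 and 3, the Myocd difference was -0.13. That leaves 1 klotho-deficient array, replicate 1, and the part of Y-linked content in the Myocd values was not tested.

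Srf, the DNA-binding partner of myocardin, measured 7385.3, 5260.0 and 8748.8 in klotho-deficient roots and 7681.6, 7202.4 and 8209.1 in wild type, with the highest and the lowest arrays both klotho-deficient (-0.14 ± 0.24, adjusted p = 0.931). Mustn1, a small nuclear protein of muscle and skeleton, measured 4620.9, 4238.0 and 5618.8 against 3755.5, 3903.7 and 4980.4 (0.20 ± 0.21, adjusted p = 0.886). Wild-type replicate 3 lay within the klotho-deficient range for Mustn1 and the other wild-type arrays below it.

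Partners and regulators of SRF, a separate list of 22 names with 19 measured genes, had 0 members at an unadjusted p under 0.05, with 13 positive differences, 6 negative and a median of 0.047. The 3 of smallest p were Foxo4, a forkhead factor that represses myocardin activity, at -0.34 ± 0.20, Prrx1, a mesenchymal homeobox factor, at 0.41 ± 0.25, and Mef2d, a muscle transcription factor, at 0.32 ± 0.22.

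Genes of dense bodies, intermediate filaments and adhesion sites formed the largest group, with 13 members, 8 positive and 5 negative differences and a median of 0.039. Ldb3, a Z-disc protein also called ZASP that is made in heart and skeletal muscle as well, measured 4045.9, 3279.7 and 2825.3 in klotho-deficient roots and 4561.6, 5099.7 and 3736.3 in wild type. The overlap came from klotho-deficient replicate 1, which was above wild-type replicate 3. Its difference was -0.40 ± 0.22 (adjusted p = 0.813), and its dimmer probe sets gave -0.41 and -0.35.

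Synpo2, myopodin, an actin-bundling protein of dense bodies, gave probe sets that disagreed. The brightest measured 21381.1, 14075.7 and 16764.8 against 15225.1, 14109.2 and 10466.3, a difference of 0.39 ± 0.25 (adjusted p = 0.825), which was 0.23 without klotho-deficient replicate 1 or without wild-type replicate 3. A dimmer probe set measured 6101.6, 4864.8 and 4737.0 against 8853.5, 8757.6 and 7502.5, all klotho-deficient arrays below all wild-type arrays, at -0.68 ± 0.21, and another likewise lay below at -0.36. The remaining one gave 0.13. With the mean over all Synpo2 probe sets the difference was -0.13, so the direction for the gene depends on the probe set. In limma over all probe sets of the array 0 passed an adjusted p under 0.05 (percent called 0).

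Filip1l, filamin A interacting protein 1-like, measured 15109.4, 9578.3 and 11666.5 against 9920.3, 9882.4 and 8378.3 (0.35 ± 0.23, adjusted p = 0.827), and the difference was 0.17 without klotho-deficient replicate 1. Klotho-deficient replicate 2 was within the wild-type range and the other klotho-deficient arrays were above it. Pgm5, aciculin, a protein of muscle adhesion sites, measured 7651.0, 4250.2 and 7181.5 against 7729.3, 7233.6 and 7606.6 (-0.29 ± 0.27, adjusted p = 0.872). The low value of klotho-deficient replicate 2 stood far from the other 5 arrays, which lay between 7181.5 and 7729.3.

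Des, desmin, the intermediate filament of muscle, varied most within a genotype, with an SD of 0.96 on the log2 scale over the klotho-deficient arrays (1827.0, 681.0 and 2430.2) and 0.21 in wild type (1159.3 to 1525.2). Its difference was 0.17 ± 0.49, against 0.71 without klotho-deficient replicate 2 and -0.21 without klotho-deficient replicate 3. The other 8 genes of this group ran from -0.14 for Nexn, nexilin, an actin-binding Z-disc protein, to 0.18 for Flna, filamin A, which crosslinks actin. They included the integrin subunit Itga8 at 0.01, vinculin (Vcl) at 0.05, alpha-actinin 1 (Actn1) at -0.11 and the LIM domain proteins Fhl1, Pdlim3 and Pdlim7 at 0.08, -0.10 and 0.04.

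Channel and signalling genes, 3 members, had a median difference of 0.48, the highest of the roles. Rgs5, a regulator of G protein signalling abundant in pericytes and arterial smooth muscle, measured 22922.6, 18628.6 and 17879.4 in klotho-deficient roots and 16020.5, 16993.7 and 10266.0 in wild type. Every klotho-deficient array was above every wild-type array, and wild-type replicate 3 was far below the other wild-type arrays. The difference was 0.48 ± 0.26 (95% interval -0.14 to 1.11, adjusted p = 0.804), and 0.26 without wild-type replicate 3.

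All 4 Rgs5 probe sets kept the genotypes apart, with differences of 0.48, 0.83, 0.54 and 0.71. They read the same transcripts on the same arrays and are not replicates. The lowest array was wild-type replicate 3 for each, and in the second brightest it read 2427.2 there, while the other 5 arrays read 5766.6 to 9578.3.

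Kcnma1, the pore subunit of the large-conductance calcium-activated potassium channel that opposes contraction, measured 3304.0, 2300.9 and 4143.0 against 2376.8, 2438.6 and 1482.0. The genotypes overlapped because klotho-deficient replicate 2 lay just below the upper wild-type arrays (0.62 ± 0.32, adjusted p = 0.796). All 5 Kcnma1 probe sets had a positive difference, from 0.54 to 1.13. The largest came from a dimmer probe set, at 1332.2, 999.2 and 1335.2 against 747.7, 558.0 and 405.2, where the genotypes did not overlap. Leaving out 1 array at a time gave 0.39 (without wild-type replicate 3) to 0.85 (without klotho-deficient replicate 2) for the brightest probe set.

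Kcnmb1, the beta subunit that raises the calcium sensitivity of the same channel in smooth muscle, measured 4456.4, 2442.4 and 4581.8 against 4977.1, 5193.1 and 3373.4, with klotho-deficient replicate 2 and wild-type replicate 3 the low arrays (-0.27 ± 0.33, adjusted p = 0.901). Without klotho-deficient replicate 2 the difference was 0.027. Dstn, destrin, which severs actin filaments, was -0.07 ± 0.19.

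**Figure D3:**
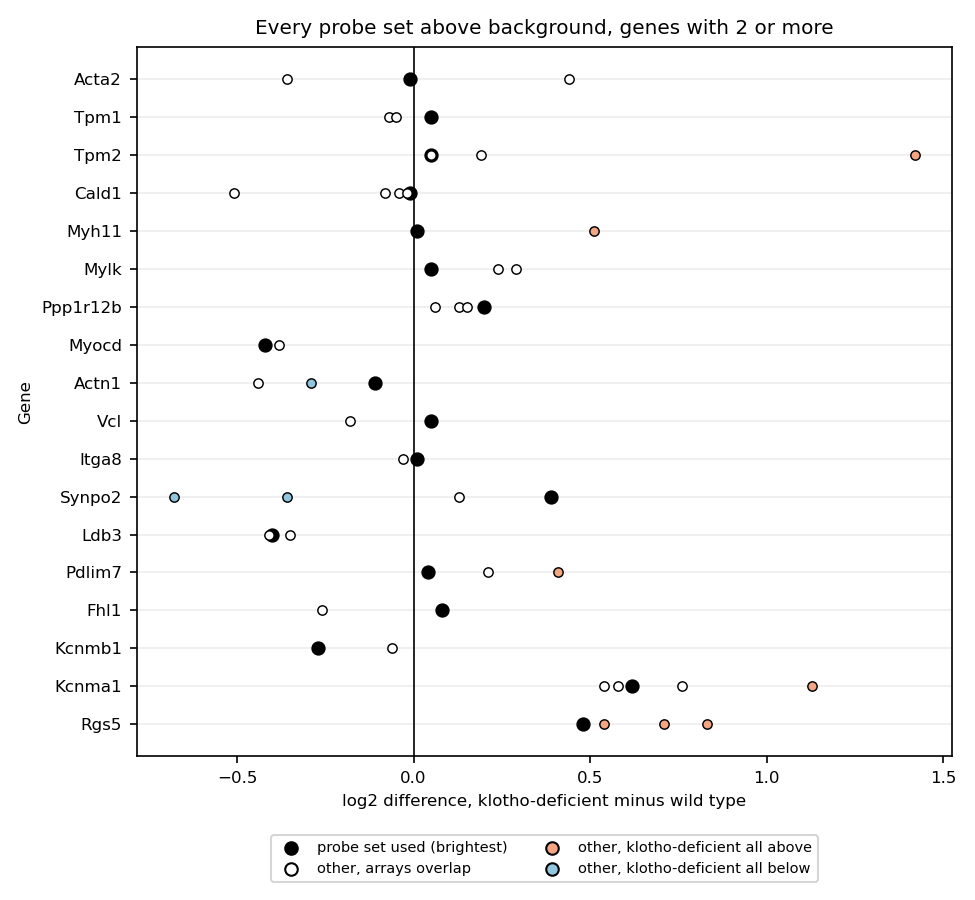
Log2 difference between klotho-deficient and wild-type roots (x axis) for every probe set above background of the contractile genes that have 2 or more such probe sets (y axis). Filled black points are the probe sets used; the 5 Kcnma1 and 4 Rgs5 points all lie to the right of 0, while those of Synpo2 lie on both sides, from -0.68 to 0.39.

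The 34 genes had 75 probe sets, 72 of them above background. Besides the 34 used, 38 others were above background, of which 30 had the sign of the probe set used and 8 the opposite sign, in Acta2, Tpm1, Vcl, Itga8, Synpo2 and Fhl1. For Acta2 the other probe sets gave -0.36 and 0.44, for Tpm1 -0.07 and -0.05, for Vcl -0.18, for Itga8 -0.03 and for Fhl1 -0.26. Among the 38 the genotypes did not overlap upward in 7, of Tpm2, Myh11, Pdlim7, Kcnma1 and Rgs5, and downward in 3, of Actn1 and Synpo2, against 6.04% and 6.24% of all 31924 probe sets above background. Of the 7, 3 are Rgs5 probe sets, which read the same transcripts. Tpm2 had 1 probe set far from the rest, and it measured 2791.0, 5283.5 and 8591.2 against 2209.8, 1976.1 and 1500.1 (1.42 ± 0.44), while the other 3 gave 0.05, 0.05 and 0.19. The dimmer Myh11 probe set also lay wholly above wild type, at 0.51, against 0.01 for the one used.

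The spread between pools was wider among klotho-deficient than among wild-type arrays. The SD on the log2 scale was larger in klotho-deficient arrays for 29 of the 34 members, with medians of 0.29 and 0.16. Over the genes above background the medians were 0.27 and 0.23, so the wild-type pools were close for the contractile genes. How many of all genes had the larger SD in klotho-deficient arrays was not counted. The difference in spread was not tested, and the SDs were not recomputed after quantile normalization.

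Klotho-deficient replicate 1 was the highest of the 6 arrays for 17 members (50%), against 12% of genes above background, and the lowest for 0. It was above all 3 wild-type arrays for 23 members (67.6%), against 25.6% of all genes, with a median of 0.24 above the wild-type mean. The lowest array was klotho-deficient replicate 3 for 13 members, klotho-deficient replicate 2 for 10, wild-type replicate 3 for 10 and wild-type replicate 1 for 1. Replicate 2 was lowest for Srf, Cnn1, Des, Vcl, Pgm5 and Kcnmb1 among others, and replicate 3 for Acta2, Tagln, Myh11, Myl9 and Myocd among others. This order depended on the scaling: after quantile normalization the lowest array was klotho-deficient replicate 3 for 5 members, klotho-deficient replicate 2 for 9 and wild-type replicate 3 for 19, the last including 8 of the 11 brightest members.

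**Figure D4:**
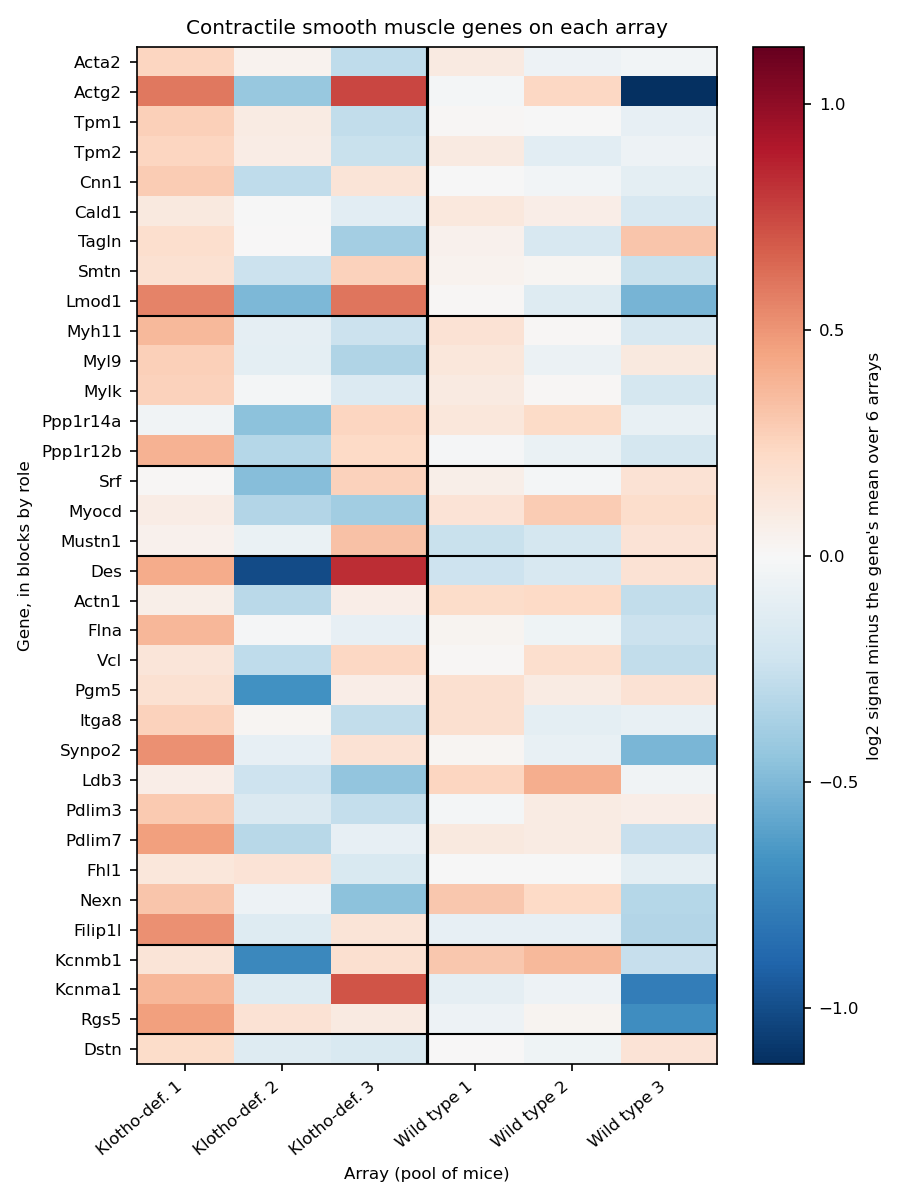
Log2 signal of each contractile gene (rows, in blocks by role) on each of the 6 arrays (columns), as the difference from the gene's mean over the arrays, red above and blue below. The column of klotho-deficient replicate 1 is red for most genes, while replicates 2 and 3 are blue for different genes.

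Markers of other tissue varied between arrays. Cardiomyocyte markers, 19 of 19 above background, were led by Tnnt2, Myl2 and Myh6. They had 10 positive and 9 negative differences, with 1 at an unadjusted limma p under 0.05, higher (3.25% of all genes). Relative to each gene's mean, the list mean was low in both pools numbered 1, at -0.55 (klotho-deficient) and -0.67 (wild type). It was 0.10 to 0.56 on the other arrays. Single markers did not all follow the list mean. Tnnt2 read 44989.6 on klotho-deficient replicate 1 and was lowest, at 34970.4, on klotho-deficient replicate 3. The summed signal of the list was 99800 to 171200 on klotho-deficient and 91740 to 149600 on wild-type arrays, so heart muscle RNA was present in every pool. The contractile genes had means of 0.26, -0.21 and 0.027 on the klotho-deficient and 0.058, 0.03 and -0.17 on the wild-type arrays, so their highest array was among the lowest for cardiomyocyte markers and their lowest array was the highest. With the cardiomyocyte mean as a covariate, the differences were -0.41 for Myocd, 0.50 for Rgs5 and 0.65 for Kcnma1.

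Skeletal muscle markers were dim, led by Tnnt3, Atp2a1 and Acta1, with 8 of 14 above background on average, Myh1 and Pvalb below it on average, Myh2, Myh4, Myh8 and Myog below it on every array, and summed signals of 2451 to 3728 and 2016 to 2985. Their differences were positive for 10 and negative for 4, with a median of 0.26. In limma 2, Tnnt3 and Myh4, were at an unadjusted p under 0.05, both higher, against 3.25% of all genes. Wholly above wild type were 3, Tnnt3, Tnni2 and Myh4, against 6.63% of all genes. Both counts thus include Myh4, which was below background on every array, and the median includes all markers below background. Endothelial markers, 10 of 10 above background and led by Vwf, Tek and Emcn, had 8 negative differences. Among them 1, Tek, was at an unadjusted limma p under 0.05, lower, against 3.16% of all genes. Wholly below wild type were 3, Tek, Tie1 and Esam, against 6.84% of all genes. The endothelial list had summed signals of 36250 to 46660 and 39890 to 77330. Its mean was -0.33 to 0.0055 on the other arrays and 0.75 on wild-type replicate 3. That array was the low one for Rgs5, Kcnma1, Actg2 and Lmod1, and the part of this in their differences was not tested beyond leaving the array out. Pericyte markers, 8 of 8 above background and led by Kcnj8, Pdgfrb and Abcc9, had 7 positive differences and a median of 0.19, with summed signals of 32970 to 53980 and 30610 to 38170. Among them Kcnj8, a potassium channel of pericytes, measured 12686.3, 11096.1 and 16415.6 against 9428.4, 7900.0 and 11307.8, and its part in the Rgs5 values was not tested. Fibroblast markers, 10 of 10 and led by Gsn, Col3a1 and Dcn, had summed signals of 263300 to 320500 and 290400 to 314000. Macrophage markers, 9 of 9 and led by Lyz2, C1qb and Csf1r, had 67260 to 84600 and 60020 to 90500. Adipocyte markers, 6 of 7 with Lep below background on average and led by Fabp4, Adipoq and Retn, had 21880 to 37970 and 31340 to 38950. Most of these sums was Fabp4, at 19669.1 to 33074.1 over the arrays. The adipocyte list mean, relative to each gene's mean, was 0.4, -0.14 and -0.89 on klotho-deficient replicates 1 to 3. It was 0.6, 0.43 and -0.39 on the wild-type replicates, so the list varied between pools of both genotypes.

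**Figure D5:**
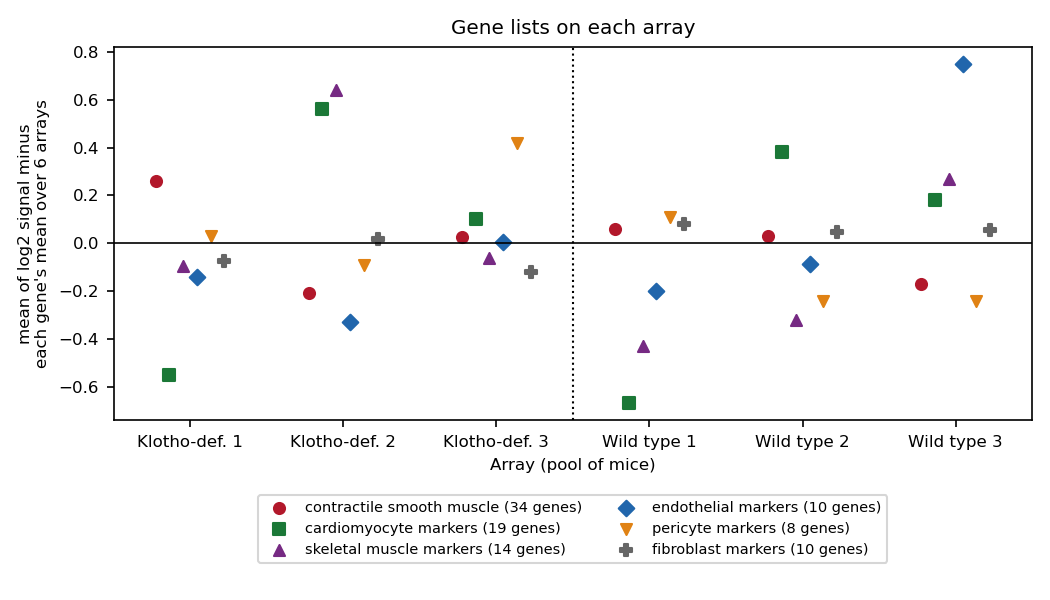
Mean log2 signal of the contractile genes and of 5 marker lists on each array (x axis), relative to each gene's mean over the 6 arrays (y axis). Contractile genes are highest (0.26) on klotho-deficient replicate 1, where cardiomyocyte markers are low (-0.55), and endothelial markers stand apart on wild-type replicate 3 (0.75).

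Genes that rise when smooth muscle leaves the contractile state gave no common direction. Of 14 listed genes 11 were measured, with 6 positive and 5 negative differences and a median of 0.0012, and 1 was at an unadjusted p under 0.05. This was Lgals3, galectin-3, also a macrophage gene, at 1845.7, 3782.1 and 4154.5 against 1014.8, 1211.9 and 1704.4, a difference of 1.26 ± 0.38 that did not pass (adjusted p = 0.689). Myh10, non-muscle myosin IIB, which marks immature and modified smooth muscle, measured 16420.3, 11609.0 and 15870.6 against 20100.3, 21277.8 and 17587.0, without overlap (-0.44 ± 0.21, adjusted p = 0.793). Tnfrsf11b, osteoprotegerin, had 0.70 ± 0.40.

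Ion channels and calcium stores, 18 measured genes, were split at 9 positive and 9 negative. The 1 gene at an unadjusted p under 0.05 was Itpr3, a calcium release channel, which was below background on average (means of 186.0 and 58.47, with 4 of 6 arrays below it). The potassium channel gene Kcnq5 had -0.72 ± 0.37. Other genes of the actin cytoskeleton, which most cells express, had 23 negative differences among 32 measured, a median of -0.10 and 0 at an unadjusted p under 0.05. The 3 of smallest p were Actn4, alpha-actinin 4, at -0.46 ± 0.22, Myh10 and Myl12b, a regulatory light chain of non-muscle myosin, at -0.32 ± 0.19. Myh10 and Myl12b lay below wild type without overlap, as did Pdlim1, a LIM domain protein named after its values were seen, which makes 3 of the 32, against 7.86% of genes above background.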

How the data were processed

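The authors deposited 1 table of linear array intensities, 45101 probe sets on 6 Affymetrix arrays, from 0.1 to 131884.9. Per the labels' protocols, NuGEN's WT-Ovation Pico system amplified the RNA before labelling. Per the submitters' processing notes the tool was RMA, with no version. How a linear scale arose is unknown here. Every array had a 2%-trimmed mean of 1500, but medians were 425.6 to 556.6. The arrays thus did not share the same distribution, which RMA usually gives them. Which algorithm made the deposited values is therefore unknown here. Intensities were log2-transformed with no pseudocount or further normalization. Probe sets with exactly 1 gene in the platform annotation (34945; 932 had several and 9160 none) gave 18193 genes, each represented by its brightest probe set; 34 of 34 member symbols were found in RefSeq.

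Every p is two-sided and comes from a moderated linear model across all genes (limma 3.58.1, R 4.3.3; 4 residual and 2.1 prior degrees of freedom), with Benjamini-Hochberg adjustment over all genes. The fit was tested on simulated data with independent noise for each gene. The simulated shifts were larger than any member's difference, and no differences in scaling or tissue content between arrays were simulated. It therefore does not show how differences of the members' size would be found. The number of arrays limits the precision. Members and lists were chosen with earlier results of these data known. Values on each array were given for 8 defining genes, the 10 members of smallest p and members without overlap; of related lists, up to 3 genes of smallest p are named, and of marker lists the 3 brightest and those below background. A related gene list is not reported here. The main fit did not pair arrays by replicate number. Figures used matplotlib 3.10.9.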

Additional observations from a re-analysis of the deposited data

How the results depend on the processing

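Over 16 alternatives, 0 of 34 members passed an adjusted p under 0.05, the lowest being 0.567. Of the 9 members more than 1 SE from 0, 7 kept their sign throughout; Synpo2 turned to -0.13 with the mean over all probe sets and Pgm5 to 0.025 without the 2 arrays that lacked Y-linked transcripts. Of the 25 within 1 SE, 4 kept their sign. Without those 2 arrays, which leaves 1 klotho-deficient array, 23 members were above all wild-type arrays (25.6% of all genes) and their median was 0.24; it was -0.034 with the mean over all probe sets. With an offset of 100, 1 member was lower at an unadjusted limma p under 0.05, against 3.81% of all genes. With the mean over probe sets 1 was higher, against 3.37%. A trended and robust prior gave 2 higher (Kcnma1 and Rgs5, against 3.7% of all genes) and 1 lower (Myocd, against 3.81%). Members without overlap were 3 higher with the mean over probe sets (6.35% of all genes) and 2 lower with median centring (4.63%). Leaving out 1 array in turn gave 0 to 3 members higher and 0 to 1 lower at that p. It gave 1 to 10 higher and 1 to 6 lower without overlap, and 0 to 1 genes called over all genes. The 3 were Lmod1, Des and Kcnma1 without klotho-deficient replicate 2, against 2.52% of all genes. Leaving out that array also gave the 10 (11.6% of all genes). The 1 lower was Myocd without klotho-deficient replicate 1, against 2.62% of all genes. Without klotho-deficient replicate 1, 6 members lay below without overlap (9.91% of all genes). Over all genes 1 was called with an offset of 100, above background only or with array weights, and 2 with the trended prior; array weights gave 1789 genes at an unadjusted p under 0.05. The replicate block left the members' median at 0.045 with 0 members at that p. Correlations between the deviations of same-numbered arrays were 0.17, -0.01 and 0.16. Those between differently numbered arrays of the 2 genotypes ran from -0.2 to 0.07. Overlap was not recounted where the values do not move (block, background limit, prior, weights, covariate). The cause of these shifts was not tested.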
